A study of Saccharomyces cerevisiae BY4741 with 24 samples.

Results

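The 12 to 18 h step in 0.5% glucose was followed with the 6 arrays of the series that the labels place at 12 h and at 18 h after inoculation in 0.5% glucose, 3 arrays per time, out of 24 arrays in all. The cells were Saccharomyces cerevisiae BY4741, grown from an optical density of 0.2 in rich YPD medium at 30 °C with shaking at 200 rpm. The 12 h group and the 18 h group shared the strain and the glucose level and differed only in the harvest time. The 2 groups used beside them were BY4741 cells at 12 h and 18 h in YPD with 2% glucose, and the arrays at 24 h in 0.5% glucose were set next to the step. Per the series design each group is a biological triplicate. RNA was labelled with biotin from 250 ng of total RNA and hybridised to Affymetrix Yeast Genome 2.0 arrays, whose deposited values are log2 levels. All 5449 S. cerevisiae genes with a probe set were members, each by its probe set with the highest mean.

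Budding yeast in rich medium first ferments glucose to ethanol, and once glucose runs low it turns to respiring the ethanol, a change known as the diauxic shift. As nutrients run down further, cells slow their growth, store trehalose and glycogen, make stress proteins and enter stationary phase. A lower starting glucose is widely used in this yeast as a form of calorie restriction, and the series design names it so.

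BY4741 is a MATa strain that carries deletions of URA3, LEU2, MET17 (MET15) and HIS3. On the 6 arrays URA3 lay between 1.22 and 1.41 and MET17 between 1.77 and 2.18, both under the background of 2.29, the 95th percentile of 1746 Schizosaccharomyces pombe probe sets that no sample should contain. LEU2 lay between 2.05 and 2.72. HIS3 lay between 4.90 and 5.25, above background. Among the genes specific to a cells, MFA1, which encodes the a-factor pheromone, lay between 6.75 and 7.73, and STE2, the receptor for alpha-factor, between 7.07 and 7.48. Of the genes specific to alpha cells, MF(ALPHA)2 lay between 1.80 and 2.46 and MF(ALPHA)1 between 1.98 and 3.42, while STE3 (4.21 to 5.37) and SAG1 (6.12 to 6.56) were above background.

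Between 12 h and 18 h the change was wide and mostly small. Levels differed at an adjusted p under 0.05 for 3277 of 5449 genes, 60.1%, of which 1634 (30.0%) were higher and 1643 (30.2%) lower at 18 h. Counts for the lists below from the deposited values are to be read against these 2 shares. At 18 h 60 genes (1.10%) were higher and 51 (0.936%) lower by at least 2-fold. The median size of a change was 0.20 on the log2 scale, the 95th percentile 0.76 and the median SE 0.064. The 3 arrays of the 2 times did not overlap for 3576 genes, 65.6%. In bulk RNA, fewer cells of a type and less RNA per cell cannot be told apart.

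Every array has the same distribution of deposited values, which sets the typical gene to no change. The mean of 12 poly-A spike-in probe sets was 3.88 at 12 h (3.70 to 4.06) and 4.07 at 18 h (3.79 to 4.45), a difference of 0.189 ± 0.225 (SE) with overlapping arrays. Setting the groups to equal spike-in means moved the median of all genes to -0.18 and gave 654 genes higher and 2981 lower. Setting each array to its own spike-in mean gave 115 higher and 683 lower. Changes are therefore relative to the typical gene. Counts of a list on the spike-in scale of the group means are given where they differ by over 1.5 times. They are to be read against the 654 higher and 2981 lower of 5449 genes on that scale.

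Replicate 1 at 18 h often lay farthest from the 12 h arrays. Among the 60 genes higher by at least 2-fold, replicate 1 was the highest of the 3 arrays at 18 h in 51, and among the 51 lower genes it was the lowest in 44. These genes were selected by a change that this array helps to set. Over all called genes the shares were 59.1% of those higher and 62.1% of those lower. The cause was not tested. Without that array all 60 and all 51 remained called, and 54 and 34 of them remained past 2-fold. Some list counts moved by over 1.5 times without it. The rises of ribosomal protein genes and of 2-carbon genes went from 5 to 3, and the falls of stationary phase genes from 5 to 3. Smaller shifts occurred in further lists, as in ribosome biogenesis, where the rises went from 32 to 25. Counts of 2 or fewer moved by 1 gene in the trehalose, daughter separation, proteasome, sporulation and mitochondrial translation factor lists. The ratio of 3′ to 5′ signal, a sign of RNA quality, was lower at 18 h with no overlap in 4 of 7 control genes. For ACT1 it was 0.76 to 0.80 (log2) at 12 h and 0.56 to 0.67 at 18 h, and for WBP1 1.73 to 1.83 and 1.30 to 1.49. The part of this difference in the results was not tested.

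The largest rise was that of YDL218W, a gene with no standard name. It stood at 3.67, 3.78 and 3.77 on the 12 h arrays and at 8.43, 7.64 and 7.58 on the 18 h arrays, so the groups lay far apart. It rose by 4.14 ± 0.16 (log2, SE; 17.6-fold; adjusted p = 1.7e-14), and by 3.87 without replicate 1 at 18 h. PIR3, which encodes a cell wall protein, stood at 7.17, 6.97 and 7.15 at 12 h and at 10.17, 9.73 and 9.73 at 18 h. It rose 6.85-fold (adjusted p = 1.8e-15). PDC6, a minor pyruvate decarboxylase isoenzyme, stood at 5.56, 5.46 and 5.38 at 12 h and at 8.54, 7.93 and 7.97 at 18 h, a 6.40-fold rise (adjusted p = 5.1e-13). In all 3 genes replicate 1 was the highest of the 18 h arrays.

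Other genes among the 15 largest rises served metabolism, transport and the cell wall. PMA2, a second plasma membrane proton pump gene beside the main one, rose 4.94-fold, and THI4, of thiamine synthesis, 3.72-fold. NCA3, a gene of the SUN family, rose 3.57-fold. HIS4, of histidine synthesis, stood at 7.36, 7.26 and 7.21 at 12 h and at 9.17, 8.98 and 8.83 at 18 h. It rose 3.29-fold (adjusted p = 6.1e-15). DAL80, a repressor of genes for nitrogen catabolism, rose 3.29-fold from 2.73, 2.78 and 2.69, just above background, to 4.80, 4.57 and 3.98. TIR1, a cell wall mannoprotein of cold and low oxygen, rose 3.10-fold. SNO4 rose 3.05-fold and its neighbour ERR3 2.62-fold, but both were measured by probe sets that related genes can share. Further pairs of neighbouring genes rose past 2-fold together, YMR084W (2.76-fold) with YMR085W (2.10-fold) and YER053C-A (2.29-fold) with GIP2 (2.26-fold).

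**Figure D1:**
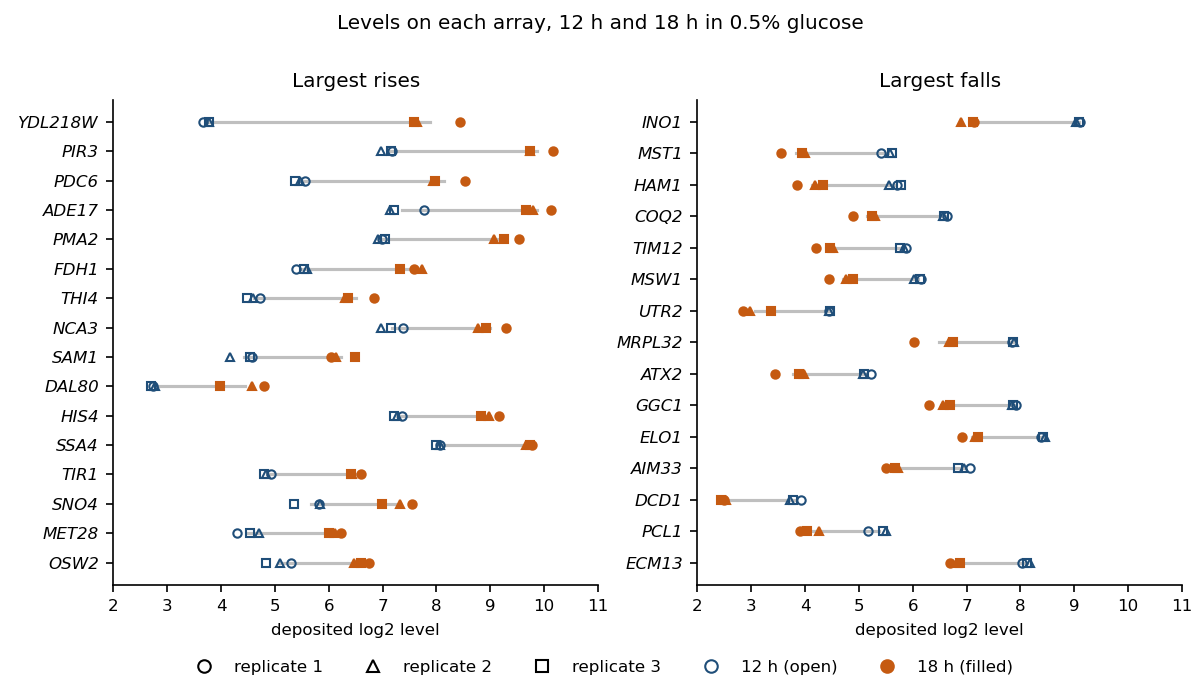
Deposited log2 level on each array (horizontal axis) for YDL218W and the genes with the 15 largest rises (left) and 15 largest falls (right) under the naming rule. Open symbols are for 12 h, filled for 18 h, with 1 shape per replicate and the grey line joining the means. The rule required arrays that do not overlap, so the 12 h and 18 h arrays are apart by selection in the genes it named. The filled circles of replicate 1 are often the farthest from the 12 h arrays, as in YDL218W at 8.43.

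Genes of sulfur and methionine metabolism rose more often than they fell. This pathway reduces sulfate, builds homocysteine and methionine, and activates methionine to S-adenosylmethionine, the donor of methyl groups. Of 34 measured genes of the list, 20 rose and 6 fell, against 30.0% and 30.2% of all genes, and the list median was 0.34 (0.007 over all genes). On the spike-in scale 16 rose and 11 fell. The count of 20 includes MET17, which is deleted in the strain and was under background on every array.

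Several genes of the methionine end of the pathway rose. SAM1, an S-adenosylmethionine synthetase, stood at 4.58, 4.17 and 4.53 at 12 h and at 6.04, 6.14 and 6.49 at 18 h, and rose 3.47-fold (adjusted p = 1.7e-11). Its paralogue SAM2 rose 1.71-fold. MET6, the methionine synthase, stood at 7.74, 7.61 and 7.67 at 12 h and at 9.13, 8.95 and 9.04 at 18 h. The 3 arrays of each time were within 0.2 of each other, and MET6 rose 2.57-fold (adjusted p = 2.9e-14). MET28, a transcriptional activator of sulfur genes, rose 3.05-fold, and MET2, homoserine acetyltransferase, 2.37-fold. MET13, a methylenetetrahydrofolate reductase that feeds MET6, rose 1.41-fold.

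Several uptake and salvage genes rose as well. MMP1, the S-methylmethionine permease, rose 2.14-fold, SAM3, the S-adenosylmethionine permease, 1.93-fold, and the methionine permease genes MUP1 and MUP3 1.58-fold and 1.63-fold. MHT1, which makes methionine from S-methylmethionine, rose 1.67-fold. A pair of enzymes that act after the methyl transfer fell. SAH1, which removes S-adenosylhomocysteine, stood at 8.78, 8.71 and 8.81 at 12 h and at 7.53, 7.55 and 7.69 at 18 h, and was 2.25-fold lower (adjusted p = 4.6e-11). ADO1, the adenosine kinase, was 1.54-fold lower. Within sulfate reduction the genes did not move as one, since MET14 and MET16 were 1.45-fold and 1.51-fold lower and MET5 rose 1.46-fold.

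Genes of purine synthesis and one-carbon metabolism moved both ways. One-carbon units carried on folate feed both the purine ring and methionine. Of 35 measured genes 19 rose and 11 fell, with a median of 0.18 that became -0.01 on the spike-in scale, where 13 rose and 14 fell. ADE17, which carries out the last steps to inosine monophosphate, stood at 7.76, 7.13 and 7.21 at 12 h and at 10.13, 9.80 and 9.67 at 18 h, a 5.67-fold rise (adjusted p = 3.0e-13). Replicate 1 was the highest array at both times. Along the same route ADE1 rose 2.23-fold, ADE4, the first committed step, 1.75-fold, ADE13 1.74-fold, ADE2 1.71-fold and ADE6 1.51-fold. ADE1 moved from 8.47, 8.24 and 8.17 to 9.59, 9.46 and 9.29.

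Several one-carbon genes rose as well. SHM2, the cytosolic serine hydroxymethyltransferase, stood at 9.08, 8.83 and 8.81 at 12 h and at 10.09, 9.93 and 9.89 at 18 h and rose 2.09-fold. MTD1, a methylenetetrahydrofolate dehydrogenase, rose 1.88-fold, and GCV1 and GCV2, of the glycine cleavage complex, 1.77-fold and 1.67-fold. FDH1, formate dehydrogenase, stood at 5.39, 5.59 and 5.54 at 12 h and at 7.58, 7.73 and 7.33 at 18 h, a 4.12-fold rise. Some genes of salvage and guanine synthesis fell. APT1, an adenine phosphoribosyltransferase, was 1.72-fold lower, and AAH1, adenine deaminase, 1.36-fold lower. IMD2, of guanine nucleotide synthesis, was 1.77-fold lower by a probe set that related genes can share.

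**Figure D2:**
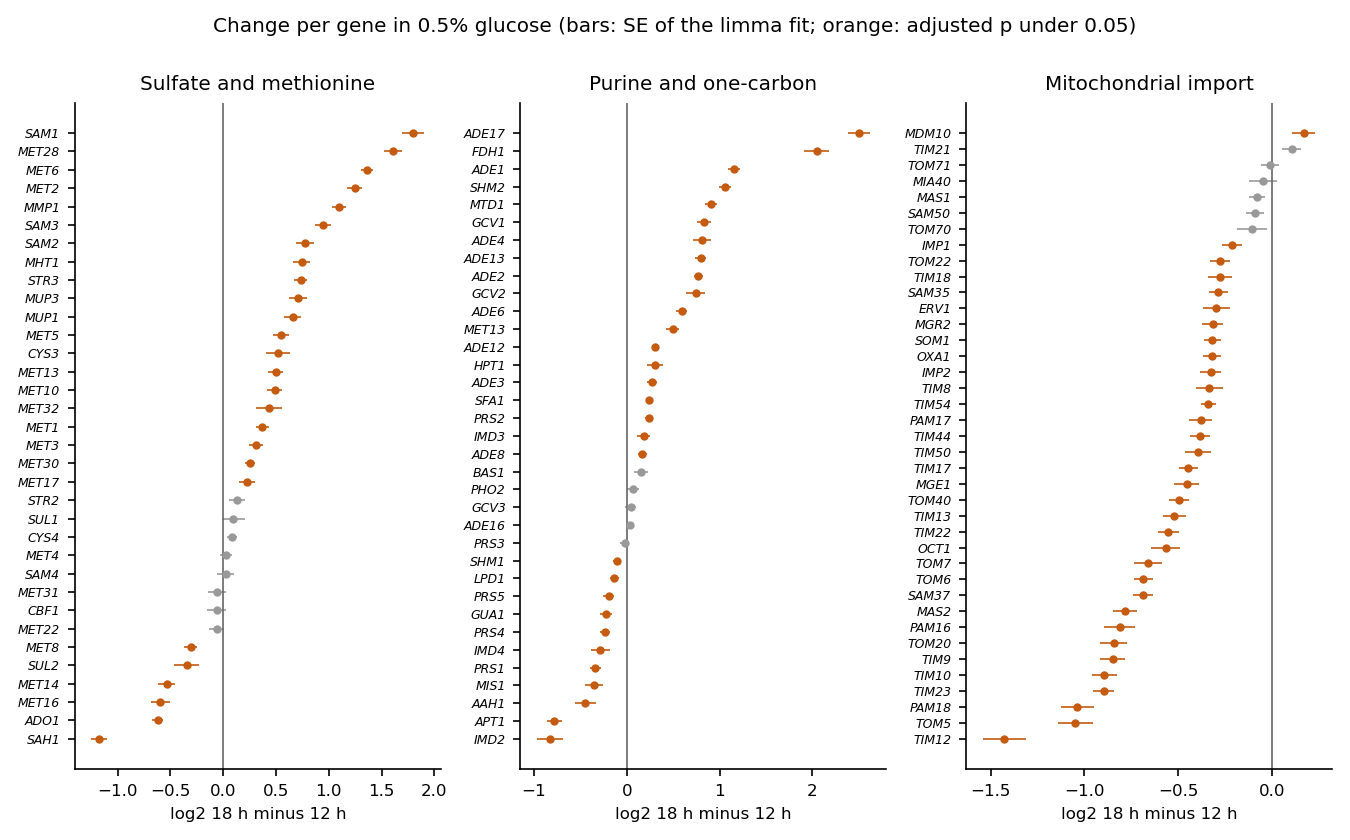
Change from 12 h to 18 h in 0.5% glucose (horizontal axis, log2, bars SE of the limma fit over 3 arrays per group) of each measured gene of sulfur metabolism, purine and one-carbon metabolism, and mitochondrial protein import, orange at an adjusted p under 0.05 and grey otherwise. SAM1 and ADE17 lead the first 2 panels at 1.80 and 2.50, SAH1 stands apart at -1.17, and 32 of 39 import genes were called lower.

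Heat shock genes moved both ways. Of 37 measured chaperone genes 22 rose and 9 fell, with a median of 0.22 (on the spike-in scale 13 and 12, median 0.03). SSA4, a stress-induced cytosolic Hsp70, stood at a mean of 8.05 ± 0.04 (SD, n = 3, at 8.07 on replicates 1 and 2) at 12 h and at 9.77, 9.67 and 9.74 at 18 h. Its arrays were tightly grouped, and it rose 3.20-fold (adjusted p = 6.1e-15). SSA3, a second stress-induced member, rose 2.74-fold, from 8.54, 8.71 and 8.88 to 10.51, 9.98 and 10.01. SSE2, a nucleotide exchange factor of Hsp70, rose 1.73-fold, and STI1, which links Hsp70 to Hsp90, 1.62-fold. SIS1, HSP82 and HSP104 rose 1.45-fold, 1.45-fold and 1.33-fold. Among the 9 that fell were the ribosome-associated SSB2 (1.38-fold lower), the constitutive SSA2 (1.48-fold lower) and the mitochondrial HSP60, HSP10 and SSC1 (1.32-fold, 1.28-fold and 1.23-fold lower).

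Of 43 measured members of the general stress response 33 rose and 5 fell, with a median of 0.25, and on the spike-in scale 19 rose and 9 fell. CTT1, the cytosolic catalase, stood at 9.86, 9.88 and 9.87 at 12 h and at 11.20, 11.14 and 11.09 at 18 h, a 2.41-fold rise (adjusted p = 1.4e-13). GND2, an isoenzyme of the pentose phosphate pathway, rose 2.37-fold and ALD3, an aldehyde dehydrogenase, 2.15-fold. RTN2, a reticulon, rose 1.86-fold and GRE1, a hydrophilin, 1.86-fold. In oxidative defence 18 of 34 genes rose and 5 fell, with a median of 0.14 (on the spike-in scale 10, 14 and -0.05). TRR2 and TRR1, the mitochondrial and cytosolic thioredoxin reductases, moved in opposite ways, 1.68-fold up and 1.53-fold down. GPX1, a glutathione peroxidase, rose 1.48-fold, and GSH1, the first enzyme of glutathione synthesis, 1.58-fold.

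Genes tied to stationary phase and vitamin B6 synthesis gave 13 rises and 5 falls among 22. SPS100, a spore wall protein gene that is also high in old cultures, stood at 9.83, 9.84 and 9.84 at 12 h and at 11.30, 11.06 and 10.96 at 18 h. It rose 2.41-fold (adjusted p = 4.7e-13). SNO1 and SNZ1, partners in vitamin B6 synthesis, rose 2.43-fold and 1.93-fold. The aquaporin genes AQY1 and AQY2 rose 2.26-fold and 1.65-fold, and HBT1 rose 1.89-fold.

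Storage carbohydrate genes rose on both the building and the breaking side. Of 22 measured genes of trehalose and glycogen 17 rose and 2 fell, with a median of 0.35, and on the spike-in scale 12 and 5. The largest rises were in SGA1, a glucoamylase that breaks down glycogen, 2.35-fold, and GIP2, a targeting subunit of protein phosphatase 1, 2.26-fold. SGA1 went from 5.46, 5.42 and 5.36 to 6.89, 6.53 and 6.52. Further phosphatase subunits that act on glycogen synthase, PIG2 and GAC1, rose 1.65-fold and 1.61-fold. GLG1, the primer of glycogen, rose 1.52-fold, GLC3, the branching enzyme, 1.31-fold, GSY1, a glycogen synthase, 1.30-fold and GPH1, glycogen phosphorylase, 1.31-fold. ATH1, which hydrolyses trehalose, rose 1.46-fold. TPS1, trehalose phosphate synthase, rose 1.17-fold, and not on the spike-in scale, where its adjusted p was 0.53. The 2 that fell were PGM1, a phosphoglucomutase (1.66-fold lower), and TPS3.

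Of 32 measured autophagy genes 24 rose and none fell, against 30.0% and 30.2% of all genes, with a median of 0.28. On the spike-in scale 12 rose and 5 fell, with a median of 0.09. ATG9, a membrane protein of the forming autophagosome, stood at 6.20, 6.29 and 6.38 at 12 h and at 7.01, 6.92 and 6.93 at 18 h, a 1.58-fold rise (adjusted p = 5.7e-10). ATG15, a vacuolar lipase, rose 1.61-fold, ATG23 1.62-fold, ATG29 1.56-fold and ATG1, the starting kinase, 1.29-fold. ATG8, the ubiquitin-like protein of the autophagosome, stood at 9.82 to 9.84 at 12 h and at 9.83 to 9.88 at 18 h and was not called. In the proteasome 16 of 40 genes rose and 1 fell. On the spike-in scale 4 of the 40 rose and 15 fell, against 654 and 2981 of all 5449 genes. The list of vacuolar hydrolases and their regulators also held VHT1, a biotin transporter gene, which was 1.60-fold lower. Of its 15 genes 8 rose and 3 fell, VHT1 included, and on the spike-in scale 3 rose and 7 fell. Among them AMS1, the vacuolar mannosidase, rose 1.63-fold.

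Genes of glycolysis and fermentation mostly rose. Of 23 measured genes 16 rose and 2 fell, with a median of 0.32 (on the spike-in scale 11, 7 and 0.13). Apart from PDC6 the rises were modest. PGI1, phosphoglucose isomerase, rose 1.48-fold, from 10.40, 10.40 and 10.42 to 11.07, 10.90 and 10.94. CDC19, the main pyruvate kinase, stood at 11.52, 11.38 and 11.38 at 12 h and at 12.01, 11.94 and 11.91 at 18 h, a 1.44-fold rise. TDH1 rose 1.43-fold and ENO2 1.39-fold, while TDH3 (log2 change -0.04) and ADH1 (-0.03) were not called. GPD2, of glycerol synthesis, rose 2.19-fold.

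The hexokinase genes moved apart. HXK2, the isoenzyme of growth on glucose, stood at 8.64, 8.43 and 8.47 at 12 h and at 7.78, 7.73 and 7.89 at 18 h and was 1.64-fold lower (adjusted p = 1.7e-08). HXK1 rose 1.37-fold, from 10.39, 10.30 and 10.30 to 10.71, 10.80 and 10.86. Of 24 hexose transporter and glucose sensor genes 12 rose and 2 fell, with a median of 0.21, while on the spike-in scale 8 rose and 8 fell, with a median of 0.02. The largest rise was in HXT10, 1.88-fold from levels of 2.81 to 3.18, and STL1, a glycerol symporter, was 1.84-fold lower. HXT2, a high-affinity transporter, changed by -0.02 with a 95% interval of -0.25 to 0.21.

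Genes for using ethanol and acetate mostly fell from high levels. Of 27 measured genes of the glyoxylate cycle, gluconeogenesis and 2-carbon use 5 rose and 19 fell, with a median of -0.24 (on the spike-in scale 3 and 21). ICL1, isocitrate lyase, stood at 11.76, 11.72 and 11.74 at 12 h and at 11.19, 11.21 and 11.27 at 18 h, and was 1.43-fold lower (adjusted p = 8.1e-09). FBP1, fructose-1,6-bisphosphatase, was 1.49-fold lower, from 11.25, 11.28 and 11.28 to 10.69, 10.71 and 10.70. MDH2, the cytosolic malate dehydrogenase, was 1.49-fold lower, SFC1, the succinate-fumarate carrier, 1.62-fold, DLD1, D-lactate dehydrogenase, 1.58-fold, ADH2, the ethanol-using alcohol dehydrogenase, 1.35-fold and MLS1, malate synthase, 1.30-fold. Replicates were within 0.1 for ICL1 at each time, while DLD1 stood farther apart at 12 h, at 10.03, 10.28 and 10.29.

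In the TCA cycle 12 of 23 genes fell and 3 rose, and 21 fell and 2 rose on the spike-in scale. LSC1, a subunit of succinyl-CoA ligase, was 1.49-fold lower, IDH2, of isocitrate dehydrogenase, 1.47-fold and CIT1, the citrate synthase, 1.28-fold. In the respiratory chain and ATP synthase 21 of 40 fell and 4 rose, and 34 fell and 2 rose on the spike-in scale. CYC1, the major cytochrome c, stood at 10.39, 10.38 and 10.35 at 12 h and at 8.93, 9.23 and 9.23 at 18 h. It was 2.37-fold lower (adjusted p = 9.2e-12), the single member past 2-fold. ATP2, the beta subunit of the ATP synthase, was 1.26-fold lower. NDE1 and NDE2, 2 external NADH dehydrogenases, moved apart, 1.35-fold down and 1.41-fold up. ANB1, the neighbour of CYC1 and a translation factor gene that is high at low oxygen, rose 2.02-fold from 3.34, 3.29 and 3.38 to 4.64, 4.23 and 4.17.

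The mitochondrial ribosome fell almost as a whole. These proteins, encoded in the nucleus, build the ribosome that translates the few mitochondrial messages, subunits of the respiratory complexes among them. Of 72 measured genes 71 fell and none rose, against 30.2% of all genes that fell, with a median of -0.50 and 6 past 2-fold. MRPL32 stood at 7.84, 7.88 and 7.86 at 12 h and at 6.02, 6.68 and 6.74 at 18 h and was 2.60-fold lower (adjusted p = 2.9e-08). MRPL3 was 2.34-fold lower, MRPL20 2.31-fold, MRPL11 2.25-fold, MRP13 2.15-fold and RSM26 2.04-fold. Replicate 1 was the lowest 18 h array in MRPL32 and in MRPL11 (6.10, against 6.53 and 6.55). Without it 70 of the 72 genes fell and the median was -0.43. The gene not called was RSM19, at 7.86, 7.75 and 7.71 at 12 h and 7.68, 7.79 and 7.71 at 18 h.

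Genes that serve the same organelle fell in 3 lists compiled after values of these data had been seen. Of 38 mitochondrial translation factors and tRNA synthetases 31 fell and none rose, with a median of -0.47. MST1, the mitochondrial threonyl-tRNA synthetase, stood at 5.41, 5.57 and 5.61 at 12 h and at 3.56, 3.99 and 3.94 at 18 h and was 3.25-fold lower (adjusted p = 1.1e-11). MSW1, for tryptophan, was 2.65-fold lower, from 6.16, 6.02 and 6.13 to 4.45, 4.76 and 4.88. The elongation factor genes MEF1 and TUF1 were 2.07-fold and 1.77-fold lower, MRH4, a helicase of ribosome assembly, 2.29-fold, and MBA1, a ribosome receptor of the inner membrane, 2.11-fold.

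Of 39 genes of protein import into mitochondria 32 fell and 1 rose, with a median of -0.38 (on the spike-in scale 37 and none). TIM12, of the TIM22 translocase, stood at 5.88, 5.83 and 5.77 at 12 h and at 4.20, 4.52 and 4.47 at 18 h, 2.69-fold lower (adjusted p = 1.2e-09). TOM5, of the outer membrane pore, was 2.07-fold lower, PAM18, of the import motor, 2.05-fold and TIM23, the inner membrane channel, 1.86-fold. The small chaperone genes TIM10 and TIM9 were 1.86-fold and 1.80-fold lower. Of 47 assembly factors and ubiquinone synthesis genes 29 fell and 5 rose, with a median of -0.26 (on the spike-in scale 39 and 1). COQ2, which attaches the ubiquinone tail, stood at 6.63, 6.56 and 6.58 at 12 h and at 4.88, 5.30 and 5.24 at 18 h, 2.73-fold lower. ATP23, COX10, PET117 and COX17, which help to build the ATP synthase and cytochrome c oxidase, were 2.17-fold, 2.16-fold, 2.12-fold and 1.85-fold lower.

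Regulators and carriers of the organelle were among the falls. HAP3, a subunit of the Hap complex that activates respiratory genes, was 1.88-fold lower, from 6.27, 6.09 and 6.17 to 5.28, 5.27 and 5.25. HAP4, its activating subunit, changed by -0.08 with a 95% interval of -0.23 to 0.06 and was not called. GGC1, the mitochondrial GTP/GDP carrier, stood at 7.92, 7.85 and 7.86 at 12 h and at 6.31, 6.56 and 6.70 at 18 h, 2.56-fold lower. HEM2, of heme synthesis, was 1.63-fold lower.

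The largest fall of all named genes was that of INO1, which makes inositol phosphate for phospholipids. It stood at 9.11, 9.04 and 9.09 at 12 h and at 7.14, 6.89 and 7.11 at 18 h, and was 4.10-fold lower (adjusted p = 2.4e-14). Here replicate 2, not replicate 1, was the lowest 18 h array. In the list of fatty acid and phospholipid synthesis, INO1 included, 15 of 24 genes fell and 3 rose, with a median of -0.16. ELO1, a fatty acid elongase, stood at 8.39, 8.45 and 8.42 at 12 h and at 6.92, 7.16 and 7.22 at 18 h, 2.50-fold lower. PSD1, CHO1 and ACB1 were 1.67-fold, 1.56-fold and 1.60-fold lower.

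Sterol synthesis genes moved both ways in shares near those of all genes. Of 30 measured genes 10 rose (33.3%) and 9 fell (30.0%), against 30.0% and 30.2% of all genes. On the spike-in scale 5 rose and 14 fell. ERG26 was 2.18-fold lower, from 7.61, 7.49 and 7.55 to 6.26, 6.50 and 6.50, and ERG4, the last step, 1.99-fold lower. ERG5, which consumes oxygen, rose 2.09-fold and ERG25 1.56-fold.

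Several other falls past 2-fold lay outside these pathways. HAM1, which clears abnormal purine nucleotides, was 2.95-fold lower, from 5.70, 5.55 and 5.78 to 3.84, 4.18 and 4.34. UTR2, a cell wall transglycosylase, was 2.62-fold lower, ATX2, a Golgi manganese transporter, 2.57-fold, and DCD1, dCMP deaminase, 2.49-fold, the last to levels between 2.44 and 2.53 near the background. AIM33 and ECM13 were 2.50-fold and 2.47-fold lower. In the cell wall list 15 of 42 genes rose (35.7%) and 11 fell (26.2%), near the 30.0% and 30.2% of all genes. On the spike-in scale 9 of the 42 rose and 22 fell, against 654 and 2981 of all 5449 genes. GAS1, the main glucan-elongating enzyme gene, was 1.98-fold lower, from 9.44, 9.27 and 9.38 to 8.22, 8.37 and 8.54.

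Genes of the phosphate regulon mostly fell where they moved, 14 of 26 with 3 rising (on the spike-in scale 17 and 1). PHO84, the high-affinity phosphate transporter, stood at 10.21, 10.09 and 10.09 at 12 h and at 9.04, 9.05 and 9.12 at 18 h, 2.08-fold lower (adjusted p = 1.4e-10). VTC3, VTC4 and VTC1, of the polyphosphate polymerase complex, were 1.67-fold, 1.46-fold and 1.45-fold lower. PHO5, the secreted acid phosphatase, was 1.33-fold lower.

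In the iron regulon 18 of 31 genes fell and 7 rose, with a median of -0.20 (on the spike-in scale 22 and 3). SIT1, a siderophore transporter, was 1.82-fold lower, from 9.51, 9.67 and 9.72 to 8.69, 8.75 and 8.86. FTR1 and FET3, partners in high-affinity iron uptake, were 1.79-fold and 1.56-fold lower, and AFT1, the activator of the regulon, 1.75-fold. CCC2, which loads copper for FET3, was 1.66-fold lower. COT1, a vacuolar zinc and cobalt transporter, was 2.12-fold lower. FET4, the low-affinity iron transporter, went the other way, from 5.74, 5.73 and 5.67 to 7.33, 6.77 and 6.77, a 2.36-fold rise.

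Of 127 measured ribosomal protein genes 5 rose and 48 fell, with a median of -0.09, none past 2-fold, and on the spike-in scale 99 fell and none rose. RPL14A and RPL21B were each 1.64-fold lower. RPL14A stood at 9.27, 9.13 and 9.14 at 12 h and at 8.50, 8.43 and 8.47 at 18 h. RPL3, with a change of 0.08, was not called. Translation factors and cytosolic tRNA synthetases gave 30 falls and 7 rises of 54 (on the spike-in scale 43 and 2). KRS1, the lysyl-tRNA synthetase, was 1.94-fold lower, from 7.60, 7.62 and 7.71 to 6.79, 6.55 and 6.72, and SUI3, a subunit of initiation factor eIF2, 1.59-fold lower. In ribosome biogenesis 32 genes rose and 22 fell of 114, with a median of 0.09, while on the spike-in scale 10 rose and 42 fell. NOP1, the fibrillarin methyltransferase, was 1.83-fold lower and NOP8 rose 1.54-fold.

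Of 65 amino acid biosynthesis genes 32 fell and 13 rose (on the spike-in scale 43 and 4), and HIS4 was the single member past 2-fold in either direction. ARO7, chorismate mutase, was 1.91-fold lower, SER2, of serine synthesis, 1.89-fold, and ASN2, asparagine synthetase, 1.81-fold, from 8.76, 8.65 and 8.70 to 7.77, 7.84 and 7.92. Of 26 amino acid permease genes 7 rose and 11 fell. TAT1 and AGP1 were 1.74-fold and 1.53-fold lower, while 4 of the 7 that rose were the sulfur permeases described above. GAP1, the general permease, changed by 0.12 and was not called.

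In DNA replication 24 of 52 genes fell and 8 rose (on the spike-in scale 34 and 3). POL32, a subunit of DNA polymerase delta, stood at 4.39, 4.32 and 4.35 at 12 h and at 3.35, 3.22 and 3.29 at 18 h, 2.09-fold lower (adjusted p = 6.5e-09). POL30, the sliding clamp PCNA, was 1.75-fold lower, RNR1, the large subunit of ribonucleotide reductase, 1.56-fold and MCM4, of the replicative helicase, 1.48-fold. RNR3, a large subunit induced by DNA damage, rose 2.00-fold and RNR2 1.36-fold. Of 10 histone genes 8 fell and none rose. HHO1, the linker histone, was 1.42-fold lower and HHT1, a histone H3 gene, 1.31-fold.

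Among cyclins and mitotic genes 14 of 39 fell and 6 rose, against 30.2% and 30.0% of all genes (on the spike-in scale 24 and 1). The share that fell, 35.9%, was near that of all genes. PCL1, a G1 cyclin of the Pho85 kinase, stood at 5.16, 5.51 and 5.44 at 12 h and at 3.90, 4.25 and 4.04 at 18 h, 2.47-fold lower. The mitotic cyclin genes CLB2 and CLB1 were 1.57-fold and 1.39-fold lower. WHI5, a repressor of the entry into the cycle, rose 1.41-fold. CLN3, the G1 cyclin that acts first, changed by -0.14 and was not called. Of 18 genes for daughter cell separation 8 fell and 1 rose (on the spike-in scale 13 and none), with EGT2 1.31-fold and DSE4 1.27-fold lower.

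Mating genes rose in both types. All 7 a-specific genes rose, with a median of 0.36, and 4 of them on the spike-in scale. Without replicate 1 at 18 h, 6 rose. MFA1 stood at 6.89, 6.75 and 6.83 at 12 h and at 7.73, 7.55 and 7.62 at 18 h, a 1.75-fold rise (adjusted p = 3.9e-10). AGA2, the agglutinin subunit, rose 1.58-fold, STE6, the exporter of a-factor, 1.43-fold and STE2 1.29-fold. The 4 alpha-specific genes rose as well, 3 of them above background. STE3, the receptor for a-factor, rose 1.78-fold, from 4.69, 4.52 and 4.21 to 5.36, 5.37 and 5.18. In pheromone response 17 of 33 genes rose and 8 fell, and on the spike-in scale 10 and 10. STE4, the beta subunit of the G protein, rose 1.56-fold, from 7.08, 7.06 and 7.07 to 7.80, 7.65 and 7.69. PRM5, PRM2 and FUS2 rose 1.81-fold, 1.83-fold and 1.59-fold. FAR1, which arrests the cycle in response to pheromone, was 1.55-fold lower.

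Genes named for sporulation rose although BY4741 is a haploid MATa strain, which does not sporulate. Of 35 measured genes 19 rose and 2 fell, with a median of 0.25, and on the spike-in scale 11 rose and 8 fell. IME1, the master activator of meiosis, stood at 6.09, 6.07 and 5.95 at 12 h and at 7.33, 7.37 and 7.30 at 18 h. Its groups were tight, and it rose 2.46-fold (adjusted p = 1.5e-11). IME2, the kinase it activates, was among the genes not called. SPR3, a septin of spores, rose 2.17-fold, REC8, a meiotic cohesin, 1.80-fold and RIM4, an RNA-binding protein, 1.63-fold.

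In the spore wall list, compiled after values had been seen, 13 of 25 genes rose and none fell, 5 of them past 2-fold (on the spike-in scale 10 rose and 3 fell). OSW2 stood at 5.30, 5.09 and 4.83 at 12 h and at 6.74, 6.46 and 6.59 at 18 h, a 2.87-fold rise. CRR1, a glycoside hydrolase, rose 2.64-fold, from 4.03, 4.19 and 3.96 to 5.82, 5.55 and 5.01. SPS100, described above, CDA1, a chitin deacetylase (2.24-fold), and SHC1, an activator of chitin synthase (2.12-fold), were the others.

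In the pentose phosphate pathway, compiled after values had been seen, 5 of 14 genes rose and 8 fell. RKI1, ribose-5-phosphate ketol-isomerase, stood at 9.49, 9.45 and 9.41 at 12 h and at 8.30, 8.28 and 8.37 at 18 h, 2.20-fold lower (adjusted p = 3.0e-11). The transketolase genes moved apart, since TKL1 was 1.51-fold lower and TKL2 rose 2.30-fold, from 9.22, 9.35 and 9.44 to 10.63, 10.46 and 10.54. GND1, the main 6-phosphogluconate dehydrogenase, was 1.23-fold lower, and its call was lost without replicate 1 at 18 h (adjusted p = 0.090).

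The remaining lists held both rises and falls, against 30.0% and 30.2% of all genes. Counts on the spike-in scale, in brackets, stand against 654 rises and 2981 falls of all 5449 genes. In beta-oxidation and the peroxisome 12 of 39 genes rose and 9 fell (on the spike-in scale 4 and 20). LPX1, a peroxisomal lipase, was 1.71-fold lower and PXA1, of the fatty acid importer, rose 1.45-fold. In the vacuolar proton ATPase 6 of 20 rose and 8 fell (1 and 12), with STV1, the Golgi form of its large subunit, 1.55-fold lower. Genes under nitrogen catabolite repression gave 11 rises and 7 falls of 31 (8 and 14), and MEP3, an ammonium permease, was 1.70-fold lower. Pyrimidine genes gave 4 and 7 of 17 (2 and 12), with FUR1, of uracil salvage, 1.62-fold lower. RNA polymerases I and III gave 7 and 9 of 37 (1 and 19), with RPC19, a shared subunit, 1.65-fold lower. Among oxygen- and heme-regulated genes 9 of 29 rose and 6 fell (7 and 15), and HMX1, heme oxygenase, was 1.68-fold lower.

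Among 58 regulators of nutrient signalling and lifespan 22 rose and 10 fell, and on the spike-in scale 12 rose and 24 fell. CYR1, the adenylate cyclase, rose 1.39-fold, and SNF4, the activating subunit of the Snf1 kinase, was 1.38-fold lower. NMA1, of NAD synthesis, was 1.53-fold lower. In thiamine synthesis and uptake, compiled after values had been seen, 12 of 17 genes rose and 2 fell (on the spike-in scale 7 and 3). THI13, by a probe set that related genes can share, rose 1.66-fold, while THI80, which makes the coenzyme from thiamine, was 1.87-fold lower.

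**Figure D3:**
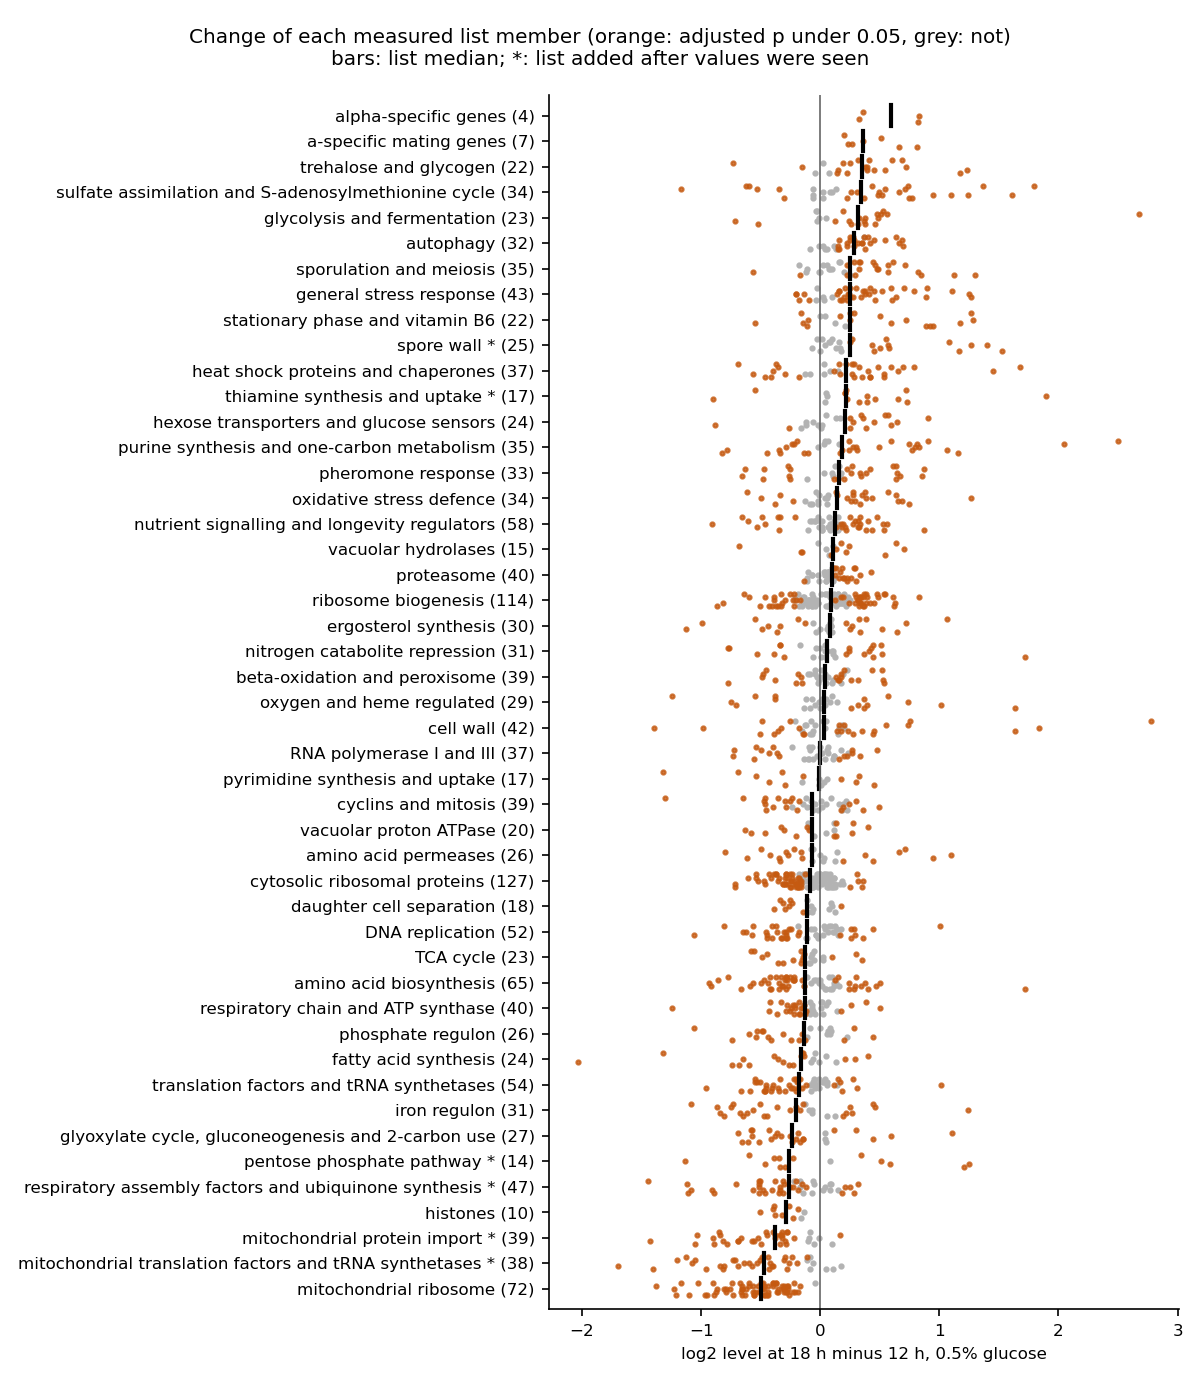
Change from 12 h to 18 h in 0.5% glucose (horizontal axis, log2) of every measured member of each gene list, 1 point per gene, orange at an adjusted p under 0.05 and grey otherwise, with the list median as a bar and the number of measured genes in brackets; lists with an asterisk were added after values were seen. The mitochondrial ribosome (median -0.50) and the mating type, storage carbohydrate and sulfur lists (0.59 to 0.34) stand at the 2 ends.

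The same step in 2% glucose shares no array with the step in 0.5% glucose. In 2% glucose 3728 genes (68.4%) differed between 12 h and 18 h, 1662 higher (30.5%) and 2066 lower (37.9%), with 205 (3.76%) and 118 (2.17%) past 2-fold. The step itself differed between the media for 3105 genes (57.0%), higher in 0.5% glucose for 1771 (32.5%) and lower for 1334 (24.5%), past 2-fold for 69 (1.27%) and 246 (4.51%). With the groups set to equal spike-in means this balance turned to 688 higher and 2545 lower, so these directions too are relative to the typical gene. The spike-in mean changed by 0.189 ± 0.225 (SE) in 0.5% glucose and by -0.053 ± 0.18 in 2%, so every difference is lower on that scale. Counts and medians of the difference per list are given below on the deposited scale only. Of the 60 genes that rose past 2-fold in 0.5% glucose 45 also rose in 2% and 9 fell there, and the difference of the step was called for 49. Of the 51 that fell past 2-fold 47 also fell in 2% and none rose, and the difference was called for 28.

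Of the 47 lists, ribosomal protein genes had the median difference of the step farthest from 0, -1.17, and the a-specific genes the next, 1.07. In 2% glucose 125 of 127 rose between 12 h and 18 h, with a median of 1.03, and the step was lower in 0.5% glucose for 124. RPL14A changed by 0.94 in 2% and by -0.71 in 0.5% glucose, a difference of -1.66 ± 0.10 (SE). In ribosome biogenesis the difference was lower for 80 of 114 genes and higher for 2, and in translation factors and tRNA synthetases lower for 44 of 54 and higher for none. Amino acid biosynthesis (35 of 65 lower, 7 higher) and DNA replication (34 of 52 lower, 5 higher) lay on the same side.

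All 72 mitochondrial ribosome genes fell in 2%, with a median of -0.87, and the step was higher, a smaller fall, in 0.5% glucose for 57 and lower for 1. For mitochondrial protein import it was higher for 18 of 39 and lower for 4, with a median difference of 0.19. MRPL20 changed by -2.01 in 2% and by -1.21 in 0.5% glucose. For MRPL32, COQ2 and TOM5 the difference was not called, at 0.07 ± 0.19, -0.01 ± 0.14 and -0.03 ± 0.13 (SE).

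The step was also higher in 0.5% glucose for 33 of 43 general stress genes and lower for 2, for 17 of 22 trehalose and glycogen genes and lower for 2, and for 20 of 32 autophagy genes and lower for 1. SSA4 changed by -0.11 in 2% glucose, where it was not called, and by 1.68 in 0.5%, and GIP2 by -0.24 and 1.17. SAM1 fell by 0.91 in 2% glucose and rose by 1.80 in 0.5%, a difference of 2.71 ± 0.15 (SE). MET6, SHM2 and GCV1 also went opposite ways, with differences of 1.68, 1.32 and 1.47. In the sulfur list the step was higher in 0.5% glucose for 17 of 34 genes and lower for 4.

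All 7 a-specific genes fell in 2% glucose and rose in 0.5%, and the difference was called for all 7. MFA1 changed by -2.00 in 2% and by 0.81 in 0.5% glucose, the largest difference of any gene named by the rule, 2.80 ± 0.08 (SE). For the alpha-specific genes the difference was called for 1 of 4, and STE3 changed by 0.85 and 0.83. AGA1, the anchor of the a-agglutinin, and FUS3, a kinase of the pheromone pathway, followed the a-specific genes, with differences of 2.03 and 1.13.

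Some genes of carbon use moved in opposite ways in the media and others did not. ADH2 changed by 1.37 in 2% and by -0.43 in 0.5% glucose, ICL1 by 0.53 and -0.51 and HXK2 by 0.88 and -0.71. FBP1 changed by -0.38 in 2% and -0.57 in 0.5% glucose, DLD1 by -1.51 and -0.66 and CDC19 by 0.75 and 0.53. Of the 27 genes of 2-carbon use the step was lower in 0.5% glucose for 15 and higher for 4. GPP1, a glycerol phosphatase, rose in both media, by 3.12 in 2% and 0.60 in 0.5% glucose, a difference of -2.52 ± 0.09 (SE). PHO5 rose by 2.08 in 2% glucose and fell by 0.41 in 0.5%, and RNR1 rose by 1.70 and fell by 0.64. SUT1, a regulator of sterol uptake, fell by 2.32 in 2% and rose by 0.41 in 0.5% glucose.

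**Figure D4:**
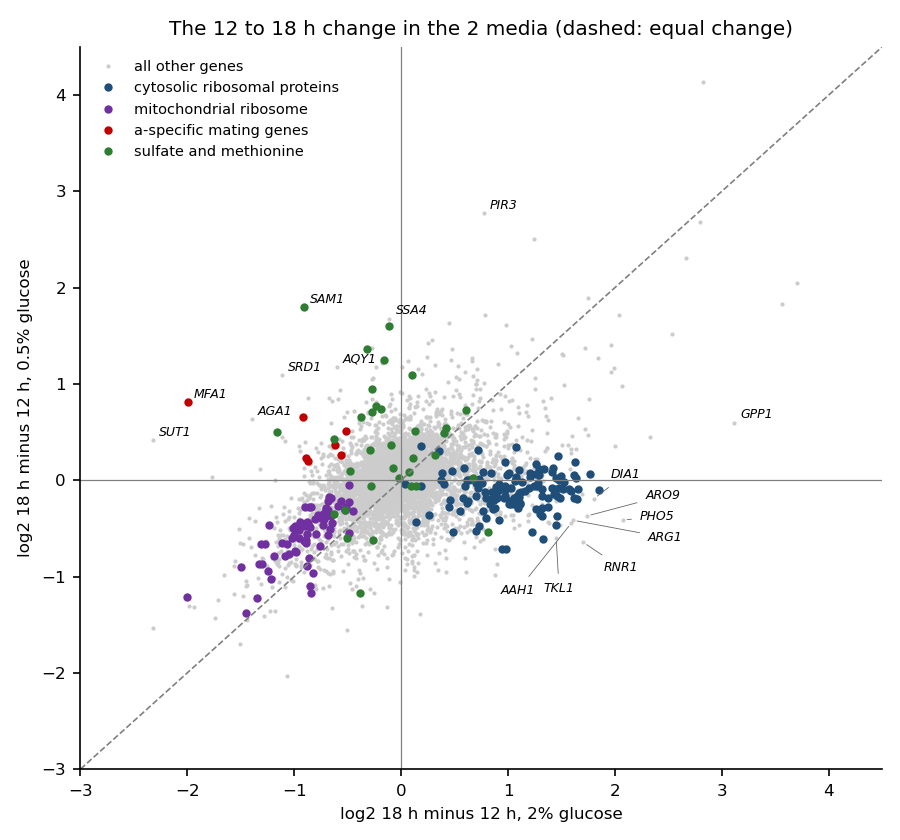
Change from 12 h to 18 h of each gene in 2% glucose (horizontal axis, log2) against 0.5% glucose (vertical axis, log2), with 4 lists in colour and a dashed line for equal change. The 16 labelled genes have the largest differences among genes that met the naming rule. Ribosomal protein genes lie far to the right of the line (medians 1.03 and -0.09), mitochondrial ribosome genes lie to the lower left, and MFA1 and SAM1 to the upper left.

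The arrays at 24 h in 0.5% glucose give the next level of the same genes, and this later step shares the 18 h arrays, so its values are set side by side only. From 18 h to 24 h 2655 genes (48.7%) differed, 1343 higher (24.6%) and 1312 lower (24.1%), with 28 (0.514%) and 22 (0.404%) past 2-fold. YDL218W changed by 4.14 and then by 2.27, PDC6 by 2.68 and 1.65, THI4 by 1.90 and 1.61, and PIR3 by 2.78 and 1.24. ADE17 changed by 2.50 and then by -0.09, which was not called, and STI1 by 0.69 and then -0.00. SAM1 changed by 1.80 and -0.55, MET6 by 1.36 and -0.35 and GCV1 by 0.83 and -0.64. INO1 changed by -2.03 and 0.47, MRPL32 by -1.38 and -0.90, and PHO84 by -1.06 and -0.39. CLB2 changed by -0.65 and then by -1.15, and DSE4 by -0.34 and -1.14.

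**Figure D5:**
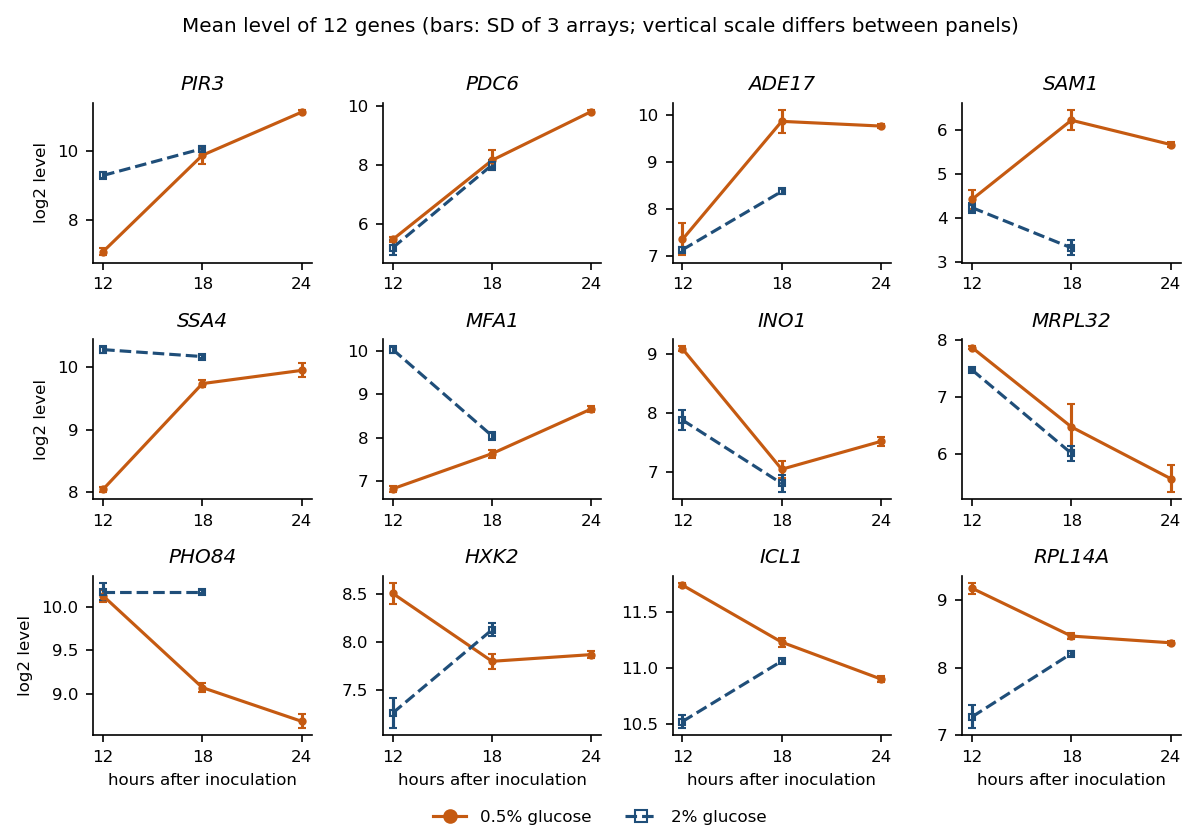
Mean log2 level of 12 genes (vertical axis, scale set per gene) at 12, 18 and 24 h in 0.5% glucose (orange) and at 12 and 18 h in 2% glucose (blue, dashed), bars the SD of 3 arrays, hours after inoculation on the horizontal axis. PIR3 and PDC6 go on rising after 18 h, ADE17 levels off, and MFA1, HXK2, ICL1 and RPL14A move in opposite directions in the 2 media between 12 h and 18 h.

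Some named genes moved little between 12 h and 18 h in 0.5% glucose. HSP12, a membrane stress protein gene, stood at 12.38, 12.57 and 12.57 at 12 h and at 12.47, 12.57 and 12.57 at 18 h, where 12.57 is the highest value on any array. HXT5, a hexose transporter of slow growth, changed by 0.05 with a 95% interval of -0.05 to 0.15, and URA1, of pyrimidine synthesis, by 0.01 with an interval of -0.10 to 0.12. Both groups of arrays overlapped in these genes and in ADH1 and HXT2.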

How the data were processed

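RNA of 24 samples was measured on arrays, 3 per group in 8 groups. The sample titles do not say whether the times came from separate cultures. The log2 values deposited by the authors were used as given. They ranged from 0.60 to 12.57, and the largest difference between sorted columns was 0.0095, from which the log scale and quantile normalization over all 10928 probe sets were inferred. The submitters' processing notes name Partek without a role, and for background correction, summarization and the logarithm's base the sources used here name nothing. Folds assume base 2. Array dates are not given.

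The 5498 probe sets of 1 S. cerevisiae gene gave 5449 genes, and for 47 genes with several the highest mean was used. Old array names were updated for 12 genes, and 118 genes have probe sets that related genes can share. Of the genes 5353 were above background in the 12 h or the 18 h group. limma 3.58.1 (R 4.3.3) fitted 1 linear model to the 24 arrays with a mean per group, with Benjamini-Hochberg adjustment over 5449 genes and a call at an adjusted p under 0.05. It was tested on simulated data. Steps in the media were compared by the interaction contrast. No array was left out or imputed, precision is limited by how many arrays there are, and no replicates were duplicates (r 0.9968 to 0.9987 within the 6 arrays).

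The members and lists were chosen with earlier results of these data known. Of the 47 lists, 6, marked in the text, were compiled after values were seen. Genes were named by a rule. It took the 15 largest called changes each way and the 8 largest called differences each way between media. Both sets needed a standard name, a group mean above background and no overlap of the 12 h and 18 h arrays in 0.5% glucose. The rule also took up to 4 members per list by moderated statistic, and a panel. The text gives those it describes. Another 103 genes were chosen after their values were seen, YDL218W among them, to fill in pathways. Roles are textbook background. Same-numbered replicates correlated in their deviations by 0.049, 0.235 and 0.201 in 0.5% glucose, where 1 pair was too low for pairing, and by 0.456, 0.148 and 0.300 in 2% glucose, where all were over 0.1.

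Alternatives were other scalings, removal of dim genes, variance trend with robust moderation, array weights, a fit to the compared arrays, a replicate block, the mean of probe sets, and leaving out each array.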

Additional observations from a re-analysis of the deposited data

Results flagged for a closer look

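The step from 12 h to 18 h differed between the media by a test of the difference itself, higher in 0.5% glucose for 1771 genes and lower for 1334. Among genes named by the rule, the differences in log2 change (0.5% minus 2% glucose) were 2.80 for MFA1, 2.74 for SUT1, 2.71 for SAM1, 2.21 for SRD1 and 2.03 for AGA1. They were 2.00 for PIR3, 1.79 for SSA4 and 1.78 for AQY1. On the other side they were -2.52 for GPP1, -2.49 for PHO5, -2.35 for RNR1, -2.11 for ARO9 and -2.05 for TKL1. They were -2.04 for AAH1, -2.02 for ARG1 and -2.00 for DIA1. SRD1 rose by 1.09 in 0.5% glucose and fell by 1.12 in 2%, and ARO9, of aromatic amino acid breakdown, fell by 0.37 and rose by 1.74. ARG1, of arginine synthesis, fell by 0.41 in 0.5% glucose and rose by 1.61 in 2%. PIR3 and GPP1 rose in both media.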

How the results depend on the processing

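The spike-in scale moved the counts most. With group means, 654 genes were higher and 2981 lower at 18 h in 0.5% glucose, and with each array's own mean 115 and 683. By at least 2-fold 38 were higher and 128 lower on both. The step was higher in 0.5% than in 2% glucose for 688 and 48 genes and lower for 2545 and 564, and in 2% glucose, with each array's mean, 661 were higher and 470 lower. HXT5 (-0.14), HSP12 (-0.16), URA1 (-0.18) and ATG8 (-0.17) turned negative and were called with group means. Of 287 genes 3 lost the call with group means and 89 with each array's mean. The spread of the spike-ins limits that scale.

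Leaving out each array in turn gave 1431 to 1543 genes higher and 1495 to 1579 lower, 54 to 67 and 35 to 62 by at least 2-fold. Differences between media ranged from 1668 to 1819 and from 1256 to 1357, and the step in 2% glucose from 1549 to 1621 and from 1935 to 2039. GND1 and MET17 each lost the call without 2 of the arrays. The replicate block gave 1718 higher and 1706 lower, 3255 of its 3424 calls shared with the 3277, and changed the call of 1 of 287 genes, CLN3. With the block the step in 2% glucose gave 1721 higher and 2119 lower and the difference between media 1839 and 1385. Arrays in 0.5% glucose share only a number, and each correlated best with its own. The cause of these shifts was not tested.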

Other observations

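After values were seen, 9 pairs of genes for the same enzyme or chaperone were chosen because 1 member fell and the other rose. All values are for the step from 12 h to 18 h in 0.5% glucose. Other pairs rose together, as SAM1 with SAM2 and AQY1 with AQY2 did. How many pairs moved each way was not counted. TKL1 and TKL2 (transketolase) changed by -0.60 and 1.20 (log2), GND1 and GND2 (6-phosphogluconate dehydrogenase) by -0.30 and 1.25, and TRR1 and TRR2 (thioredoxin reductase) by -0.61 and 0.75. GND1 lost its call without replicate 1 at 18 h. HXK2 and HXK1 (hexokinase) changed by -0.71 and 0.46, and PGM1 and PGM2 (phosphoglucomutase) by -0.73 and 0.41. NDE1 and NDE2 (external NADH dehydrogenase) changed by -0.43 and 0.50, and PYC1 and PYC2 (pyruvate carboxylase) by -0.49 and 0.30. CIT1 and CIT3 (citrate synthase) changed by -0.35 and 0.35, and SSA2 and SSA4 (cytosolic Hsp70) by -0.56 and 1.68.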
